A study of Mus musculus with 23 samples.

Results

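The repeats described here are the Lx, L1_ and L1VL subfamilies of the L1 family of LINE elements in the mouse genome. They were chosen by name, with earlier results of these data known. The rule took the rows of the deposited table with family L1 and a name starting with Lx, L1_ or L1VL. This gave 33 of 1135 rows, and 33 of the 133 rows of family L1, namely 21 Lx, 9 L1_ and 3 L1VL subfamilies. Names starting with L1Md were not included. RNA came from whole spinal cord lysate of PS19 mice and wild-type littermate controls. There were 7 PS19 animals and 6 controls aged 9 months, and 5 animals of each genotype aged 4 months. PS19 mice carry a human tau transgene in heterozygous form, driven by the mouse prion protein promoter, and model a tauopathy. The labels give neither sex nor batch. The RNA was poly(A)-selected and sequenced with strand-specific paired reads, and each value is the number of reads assigned to a subfamily, divided by a size factor per sample (a normalized read). The table covers repeats only, so the tissue and the transgene were not checked against marker genes here.

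L1 elements are retrotransposons that copy themselves through RNA. An intact copy encodes an RNA-binding protein and a protein with endonuclease and reverse transcriptase activity, which insert a DNA copy of the transcript at a new site. Lx elements spread in ancestors shared by mice and rats, and their copies are old, mostly truncated at the 5′ end and decayed by mutation. The L1Md subfamilies hold the L1 copies that can still move in the mouse. Old L1 copies often lie in introns and between genes, so a read assigned to them may come from the transcript of another gene as well as from the element. Which of these gave the reads counted here was not tested.

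All 33 subfamilies had a mean of at least 10 normalized reads over the 23 samples, the limit for testing, and were among the 920 rows tested. Values count reads and are not per copy or per length, because the number and total length of the copies of a subfamily are not in the sources used here. Comparisons are therefore between samples for the same subfamily. A 9-month sample held between 338090 and 590194 repeat reads, and a 4-month sample between 529522 and 2168280. The 33 subfamilies took 13232 to 32571 of these reads at 9 months and 33723 to 235331 at 4 months. Each sample is taken as 1 animal, numbered in the order of the labels, and a p-value measures the spread between these samples.

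The 4-month samples fell into sets that both genotypes share. Replicates 1 to 3 of PS19 and of control had higher values than replicates 4 and 5 of both genotypes for 33 of the 33 subfamilies, as for 91.6% of all 920 rows tested. The mean log2 difference between these sets was 1.62 to 2.52 over the 33, with a median of 2.16, against a median of 1.93 over all rows tested. The sets follow the sample numbers in the labels, which do not say what the numbers stand for. The tests between genotypes at 4 months, of the interaction and between ages on the authors' scale are therefore also given with these sets taken into account. Shares and values scaled within the repeat table are given over all 4-month samples, without the sets taken into account.

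Summed over the 33 subfamilies, the 9-month signal averaged 21429.7 ± 4644 normalized reads over 7 PS19 animals, against 17741 ± 2999.9 over 6 controls (mean ± SD). The lowest, median and highest sums were 16344, 20658 and 29788 in PS19 and 14519.6, 17172 and 23383 in control. The groups overlapped, with the highest control inside the range of the PS19 animals. At 4 months the 5 PS19 animals, replicates 1 to 5, had sums of 146822, 154972, 181289.8, 69875 and 34789, against 159161, 266964, 173713, 32324 and 51962 in the 5 controls. The lowest 4-month sum lay above the highest 9-month sum.

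As a share of all repeat signal, which does not depend on the size factor of a sample, the 33 subfamilies made up 4.75% ± 0.55 in the 9-month PS19 animals (SD, n = 7) and 4.37% ± 0.38 in their controls (SD, n = 6). At 4 months they made up 9.16% ± 1.06 in PS19 animals, against 8.86% ± 1.73 in controls (SD, n = 5 each). All 13 samples at 9 months, between 3.91% and 5.52%, lay below all 10 samples at 4 months, between 6.37% and 10.9%. At 4 months the share also followed the sets without overlap. It was 9.10% to 10.9% in replicates 1 to 3 and 6.37% to 8.96% in replicates 4 and 5. The 6 L1Md subfamilies had shares of 1.79% to 2.53% at 9 months and 3.03% to 3.70% at 4 months. The other 94 L1 subfamilies had 5.73% to 6.39% at 9 months and 3.51% to 6.08% at 4 months. In whole tissue, fewer cells of a type and less RNA per cell cannot be told apart.

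**Figure D1:**
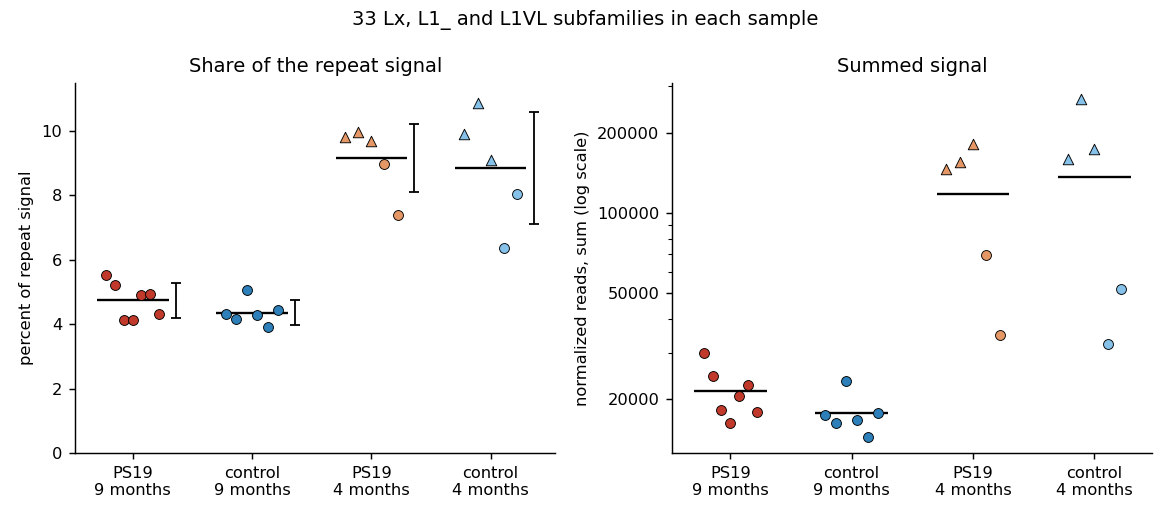
Left, share of the 33 subfamilies in the repeat signal of each sample in percent; right, their summed normalized reads on a log scale. Points are samples, lines are group means, bars in the left panel are SD (n = 7, 6, 5 and 5), and triangles mark replicates 1 to 3 of the 4-month groups. Every 9-month share lies below every 4-month share, and the PS19 and control samples of an age overlap.

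The first comparison asked which of these subfamilies differ between PS19 and control spinal cord at 9 months. Of the 33, 1 passed the threshold as higher in PS19 (Lx6) and 0 as lower, while 3.04% of all 920 rows passed as higher and 0.326% as lower (limma, fit of the 9-month samples, adjusted p under 0.05). Log2 fold changes were above 0 for 32 of the 33, as for 75% of all rows tested, and their median was 0.31, against 0.19 over all rows. At an unadjusted p under 0.05 in limma there were 16 of the 33, all higher in PS19, beside 15.5% of all rows as higher. In either direction, this count was 7 after scaling within the repeat table, beside 17.9% of all rows. With PS19 replicates 6 and 7 only it was 3, beside 8.04%. With all 23 samples in the fit it was 0, beside 28 of 920 rows. Leaving out 1 animal gave 6 (without control replicate 5, beside 118 of 920 rows) to 28 (without control replicate 3, beside 27.3%). The 33 vary together, as described further on, so these counts are not of independent events.

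Lx6 stands in the middle of the numbered Lx series. Lx6 had 719, 657, 414, 396, 599.7, 587 and 433 normalized reads in PS19 replicates 1 to 7, against 388, 278, 508, 375, 287 and 379 in control replicates 1 to 6. Control replicate 3, the highest control, lay below 4 PS19 animals and above the other 3. PS19 animals averaged 544 ± 129 (SD, n = 7), against 369 ± 83.3 for controls (SD, n = 6), which is a log2 fold change of 0.55 (SE 0.15, limma adjusted p = 0.0469). That p lies close to the threshold of 0.05. Leaving out each of the 13 animals in turn, the limma adjusted p of Lx6 ranged from 0.0096 to 0.132, and the call held in 4, those without PS19 replicate 3, 4 or 7 or control replicate 3. Leaving out any of the other 9 animals ended it. With samples scaled within the repeat table by the TMM method (median over all rows 0.01, against 0.19 on the authors' scale), Lx6 had a log2 fold change of 0.37 (limma adjusted p = 0.0539), and 0 of the 33 passed, beside 0.87% of all rows as higher and 0.761% as lower. On the reads recovered from the table, edgeR called 0 of the 33 as higher, beside 2.28% of all rows, and DESeq2 called Lx6 and L1VL4, beside 4.46%.

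L1VL4 and Lx5c had the next smallest p-values. L1VL4 had 381, 364, 195, 207, 284, 326 and 194 normalized reads in PS19 replicates 1 to 7, against 159, 141, 286, 163, 142 and 206 in control replicates 1 to 6. Control replicate 3 lay above 4 of the 7 PS19 animals, and the other controls ended at 206, above 2 of them. The log2 fold change of L1VL4 was 0.60 (SE 0.19, limma adjusted p = 0.0836), the highest among the 33. For Lx5c the lowest, median and highest values were 860.2, 1049 and 1354 normalized reads in PS19 and 780.2, 830.3 and 986 in control. The Lx5c groups overlapped, and its log2 fold change was 0.31 (SE 0.10, limma adjusted p = 0.11). No subfamily of the 33 had PS19 and control groups that did not overlap, beside 0.978% of all rows with every PS19 animal higher and 0.326% with every PS19 animal lower.

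The number of calls depended on single animals. Control replicate 3 was the highest control for 31 of the 33 subfamilies, and without it 9 of the 33 passed as higher, beside 7.83% of all rows. These were Lx9, Lx6, Lx5, Lx5c, Lx3C, Lx2, L1_Mur3, L1_Rod and L1VL4, and the median log2 fold change of the 33 was 0.42. Without PS19 replicate 1, the highest PS19 animal for 30 of the 33, 0 passed, beside 1.74% of all rows, and the median was 0.23. PS19 replicates 1 to 5 carry lower sample numbers than every 9-month control. When PS19 was represented by replicates 6 and 7 alone, 0 of the 33 passed, beside 0.652% of all rows as higher, with 32 estimates above 0 (67.7% of all rows) and a median of 0.27, and Lx6 had a log2 fold change of 0.48 (limma adjusted p = 0.529).

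Along the subfamily order from Lx10 to Lx, the 9-month log2 fold changes of PS19 over control had no even trend. They were 0.29 for Lx10, 0.27 for Lx9, 0.13 for Lx8, 0.23 for Lx8b and 0.11 for Lx7. Lx6, at 0.55, was the highest of the Lx names. The 3 Lx5 names lay between 0.31 and 0.42, the 2 Lx4 names between 0.23 and 0.35 and the 4 Lx3 names between 0.27 and 0.33. The 5 Lx2 names spread from -0.20 for Lx2A1 to 0.54 for Lx2A, and Lx stood at 0.22. Lx2A and Lx2A1 had the fewest reads and the largest SE, 0.42 for Lx2A and 0.31 for Lx2A1. The 9 L1_ names lay between 0.20 and 0.46, with L1_Mur3 and L1_Rod (0.45) highest, and the 3 L1VL names between 0.39 and 0.60. Apart from Lx6, none of these passed the threshold. Scaled within the repeat table, 30 of the 33 were above 0 (52.3% of all rows), with a median of 0.13 against 0.01 over all rows, and Lx8 (-0.04), Lx7 (-0.07) and Lx2A1 (-0.38) were below 0.

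**Figure D2:**
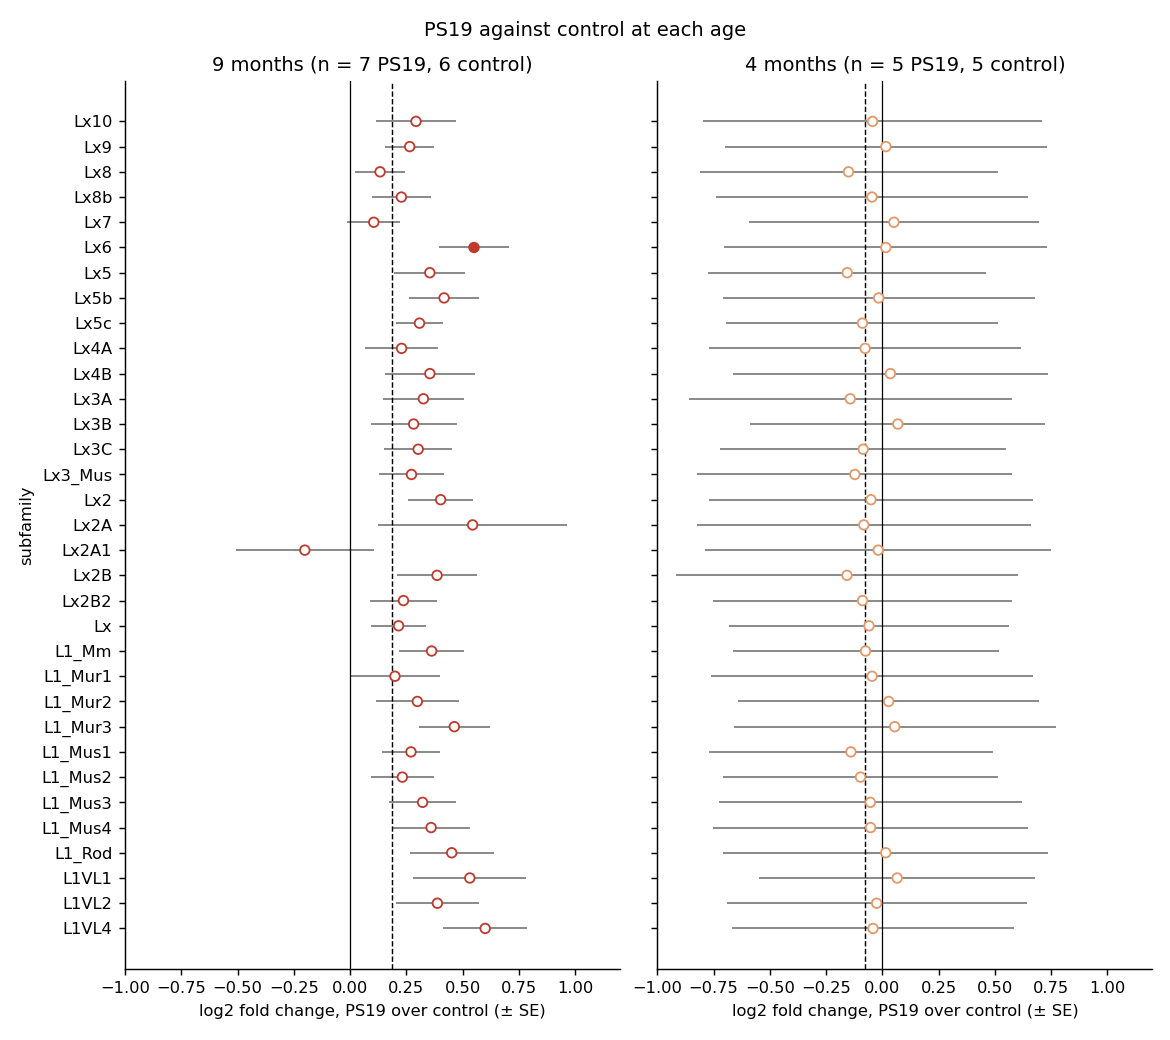
Log2 fold change of PS19 over control for each of the 33 subfamilies, in the order Lx10 to Lx, L1_ and L1VL, at 9 months on the left and 4 months on the right. Points are limma estimates with SE bars, the filled point passed an adjusted p of 0.05, and the dashed line is the median over all 920 rows tested. At 9 months 32 of 33 estimates lie above 0 and Lx6 is filled, and at 4 months the estimates lie between -0.16 and 0.07 with SE of 0.59 to 0.77.

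The same question at 4 months gave no call. With limma on the 4-month samples 0 of the 33 passed and 0 of all 920 rows did (0%), and 0 of the 33 had an unadjusted p under 0.05, again with 0% of all rows. With edgeR and with DESeq2, 0 of the 33 had an adjusted or an unadjusted p under 0.05, as had 0% of all rows. In these fits the difference between the sets, a median of 2.16 (log2) over the 33, was part of the error. They could therefore find only large differences, and the counts of 0 do not show that the genotypes are alike. Estimates were below 0 for 24 of the 33 and above 0 for 9 (37% of all rows), with a median of -0.05, against -0.08 over all rows. The direction depended on the method: in edgeR and in DESeq2 0 of the 33 were above 0 (10.3% of all rows in each), and 22 were with limma after scaling within the repeat table (50.8%). The limma SE was 0.59 to 0.77 on the authors' scale and 0.068 to 0.27 after scaling within the repeat table. On that second scale the estimates lay between -0.08 and 0.15, with 0 of the 33 passing, beside 0% of all rows, and 0 at an unadjusted p under 0.05, beside 0.543%.

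Lx5, Lx8 and L1_Mus1 had the smallest p-values at 4 months. Lx5 had 5669, 5881, 7013, 2862 and 1488 normalized reads in PS19 replicates 1 to 5 at 4 months, against 6139, 10382, 6934, 1721 and 2252 in control replicates 1 to 5. Lx8 had 16073, 16575, 20039, 7356 and 3822 normalized reads in PS19 replicates 1 to 5 at 4 months, against 17411, 28840.3, 20518, 4301 and 5710.5 in control replicates 1 to 5. L1_Mus1 had 9836, 10955, 12446, 5113 and 2636 normalized reads in PS19 replicates 1 to 5 at 4 months, against 10918, 18425, 12156, 2701 and 4449 in control replicates 1 to 5. In each of the 3, control replicate 2 was the highest sample, and the highest values of replicates 4 and 5 lay below the lowest of replicates 1 to 3. Log2 fold changes were -0.16 for Lx5 (SE 0.62), -0.15 for Lx8 (SE 0.66) and -0.14 for L1_Mus1 (SE 0.63), with a limma adjusted p of 0.9999 for each. With a term for the sets, 0 of the 33 passed in limma, beside 0% of all rows, and 0 had an unadjusted p under 0.05, beside 0.543%. Lx6 had 4275, 4610.3, 5354, 1892 and 845 normalized reads in PS19 replicates 1 to 5 at 4 months, against 4652, 8086, 5018, 704 and 1205 in control replicates 1 to 5. Its log2 fold change at this age was 0.02 (SE 0.72).

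Whether the difference between PS19 and control itself differed between the ages was tested as an interaction over all 23 samples. Of the 33, 0 passed with any of the 3 tools, where 0% of all rows passed in limma and 0.109% as higher in DESeq2. An unadjusted p under 0.05 was found for 0 of the 33 with each tool, beside 0.87% of all rows in limma, 1.2% in edgeR and 1.52% in DESeq2. In these fits the error of a row came from all 23 samples, with the wider spread of the 4-month samples and their sets in it. The counts of 0 therefore do not show that the genotype difference was alike at both ages. The interaction, coded as the 9-month log2 fold change less the 4-month one, was above 0 for 32 of the 33, beside 77.7% of all rows, with a median of 0.40 (log2) against 0.27 over all rows. L1VL4 (0.64, SE 0.61) and Lx5 (0.51, SE 0.58) had the smallest p-values, both at an adjusted p of 0.997 in limma. L1VL4 had 2067, 2245, 2717, 1228 and 648 normalized reads in PS19 replicates 1 to 5 at 4 months, against 2390.3, 4138, 2552, 446 and 1030.2 in control replicates 1 to 5. The L1VL4 groups overlapped at this age, and control replicate 2 was its highest sample. For Lx5 the lowest, median and highest values at 9 months were 542, 732 and 1043 normalized reads in PS19 and 430.1, 550.0 and 849 in control. With a term for the sets at 4 months, 0 of the 33 passed, beside 0.217% of all rows as higher and 0% as lower. In that fit 8.26% of all rows had an unadjusted p under 0.05 in limma, 8.15% as higher and 0.109% as lower. How many of the 33 were among them is not given here. Scaled within the repeat table, the median of the 33 was 0.14, against 0.02 over all rows. Leaving out PS19 replicate 5 at 4 months took the median of the 33 to -0.01, and leaving out control replicate 4 at that age took it to 0.79.

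**Figure D3:**
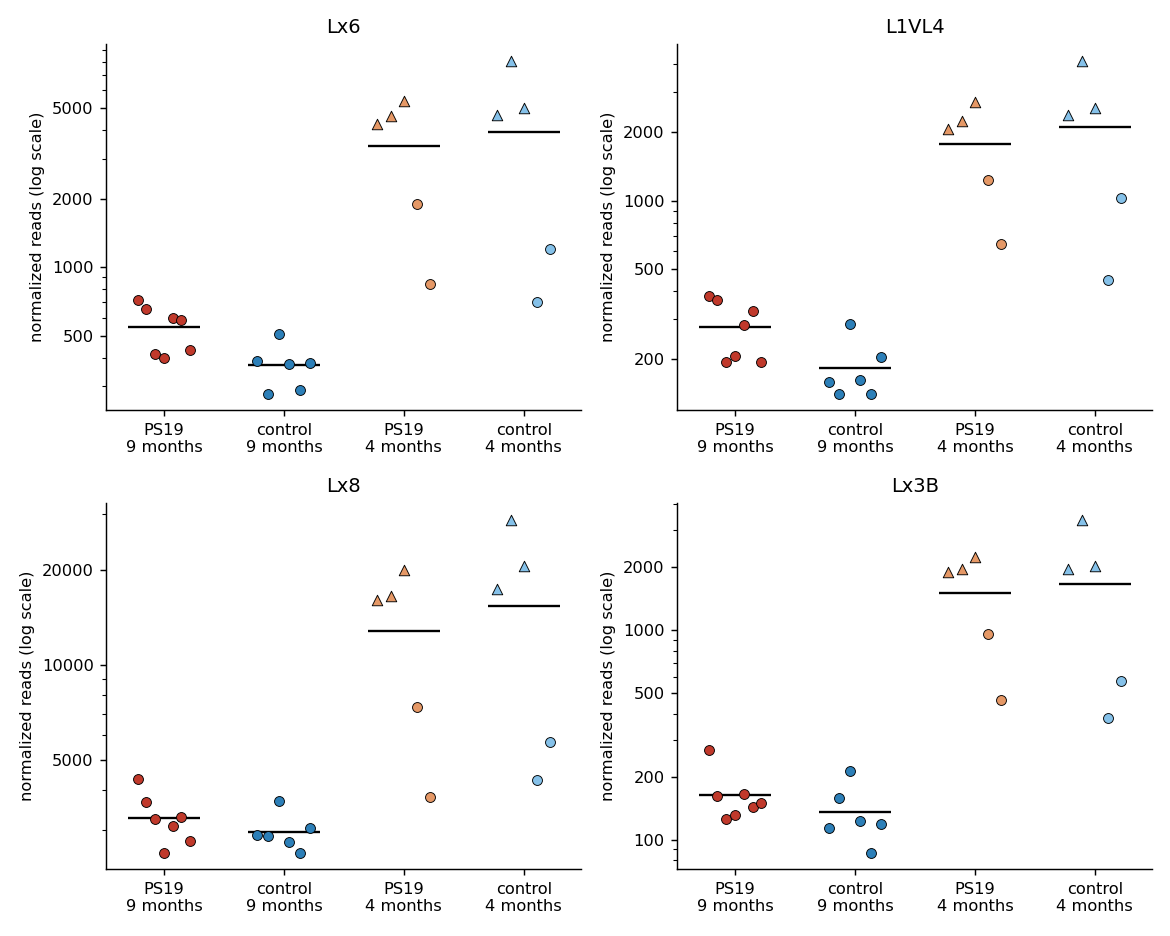
Normalized reads of Lx6, L1VL4, Lx8 and Lx3B in each sample, on log scales. Points are samples, lines are group means, and triangles mark replicates 1 to 3 of the 4-month groups. Lx6 averaged 544 in PS19 and 369 in control at 9 months, and in all 4 panels the triangles lie above every other sample.

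Between ages, every one of the 33 subfamilies was lower at 9 months on the authors' scale. In PS19 33 of 33 passed as lower and 0 as higher, where 77% of all rows passed as lower and 6.09% as higher, and in control 33 of 33 as lower, where 79.3% did and 6.09% were higher (limma, fit of all 23 samples, adjusted p at most 0.000387 for a subfamily in PS19 and 0.000117 in control). The median log2 fold change of 9 over 4 months was -2.45 in PS19, against -1.83 over all rows, and -2.85 in control, against -2.14 over all rows. Against replicates 4 and 5 as the only 4-month samples, 33 of 33 again passed as lower in each genotype, beside 50.2% of all rows. The medians of the 33 were then -1.27 in PS19, against -0.95 over all rows, and -1.35 in control. The median over all rows in control is not given for this fit. Preparation, counting or scaling may have differed between the ages, and such differences and age cannot be told apart. Every PS19 animal at 9 months lay below every PS19 animal at 4 months for 28 of the 33 subfamilies, beside 43.3% of all rows, and in control this held for 30, beside 48.4%.

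Scaling within the repeat table took the median over all rows to -0.13 in PS19 and -0.19 in control. On that scale 30 of the 33 passed as lower in PS19 and 31 in control, and 0 as higher in either. Of all rows, 31% passed as lower and 31% as higher in PS19, and 33.8% as lower and 31.2% as higher in control. The median of the 33 was -0.72 in PS19 and -0.87 in control. The 6 L1Md subfamilies had medians of -0.83 in PS19 and -1.01 in control on that scale, and the 86 other L1 subfamilies tested had -0.17 in PS19 and -0.12 in control. Whether these lists differ was not tested.

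The size of the age difference varied within the group. The smallest falls on the authors' scale were those of Lx8, Lx5c and Lx7, in both genotypes. For Lx8 the lowest, median and highest values at 9 months were 2535, 3232 and 4339.5 normalized reads in PS19 and 2535, 2876 and 3692 in control. All 7 PS19 and all 6 control animals at 9 months lay below replicates 1 to 3 of the 4-month groups. Its log2 fold change of 9 over 4 months was -1.75 in PS19 (SE 0.41) and -2.03 in control (SE 0.42). Scaled within repeats it was -0.02 in PS19 and -0.05 in control, and neither passed (limma adjusted p = 0.824 in PS19 and 0.567 in control). Lx7 had 11194, 11381, 12332, 5519.9 and 3254 normalized reads in PS19 replicates 1 to 5 at 4 months, against 12163, 18339, 11820.4, 2183 and 4104 in control replicates 1 to 5. At 9 months its lowest, median and highest values were 1673, 1995 and 2851 normalized reads in the 7 PS19 animals and 1632, 1927 and 2485 in the 6 controls. Lx7 was at -1.90 in PS19 and -1.96 in control (log2 fold change), and after scaling within repeats at -0.17 in PS19 (limma adjusted p = 0.0657) and 0.030 in control (limma adjusted p = 0.764), so that its direction in control turned. Lx5c had 5036, 5308, 6165, 2449 and 1511 normalized reads in PS19 replicates 1 to 5 at 4 months, against 5605, 8676, 5867, 1476 and 1969.6 in control replicates 1 to 5. Lx5c was at -1.77 in PS19 and -2.17 in control. Scaled within repeats Lx5c passed in control (-0.18, limma adjusted p = 0.00931), and in PS19 it stood at -0.04 (limma adjusted p = 0.521). Lx8 and Lx7 in both genotypes and Lx5c in PS19 were the cases without a call on that scale.

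The deepest falls were spread over Lx2, Lx3 and L1_Mus names. Lx2A, with few reads, was lowest in both genotypes. Lx2A had 285, 276, 323, 85.1 and 54.5 normalized reads in PS19 replicates 1 to 5 at 4 months, against 264, 541, 294, 67.1 and 55.5 in control replicates 1 to 5. The 7 PS19 animals at 9 months had a lowest, median and highest value of 7.06, 24.1 and 34.8 normalized reads for Lx2A, against 6.02, 12.0 and 35.7 in the 6 controls. Its log2 fold change of 9 over 4 months was -3.11 in PS19 (SE 0.58) and -3.73 in control (SE 0.60). Lx2A1 had 449, 474, 516, 195 and 69.1 normalized reads in PS19 replicates 1 to 5 at 4 months, against 507, 835, 526, 76.7 and 92.0 in control replicates 1 to 5. Lx2A1 at 9 months had a lowest, median and highest value of 15.4, 31.3 and 70.4 normalized reads in PS19, against 24.1, 38.2 and 48.3 in control. Lx2A1 fell by 3.09 on the log2 scale in PS19 and by 2.90 in control. The next subfamily has more reads. Lx3B had 1886, 1969.9, 2244, 954 and 463 normalized reads in PS19 replicates 1 to 5 at 4 months, against 1958, 3362, 2019, 381 and 574 in control replicates 1 to 5. In the 9-month samples the lowest, median and highest of Lx3B were 126, 149 and 268 normalized reads in PS19 and 86.7, 121 and 214 in control. Lx3B was at -3.02 in PS19 (SE 0.44) and -3.24 in control (SE 0.46), and the ages did not overlap in Lx3B.

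Lx3_Mus and L1_Mus4 were among the 3 deepest in control. Lx3_Mus had 3166, 3401, 4002, 1381 and 551 normalized reads in PS19 replicates 1 to 5 at 4 months, against 3433, 5904, 3831, 681 and 950.0 in control replicates 1 to 5. At 9 months its lowest, median and highest values were 225, 257 and 395 normalized reads in the 7 PS19 animals and 177, 232 and 294 in the 6 controls. The log2 fold change of Lx3_Mus was -2.88 in PS19 and -3.28 in control. L1_Mus4 had 3724, 3952, 4679.8, 1647 and 727 normalized reads in PS19 replicates 1 to 5 at 4 months, against 3932, 7163, 4324, 692 and 1175 in control replicates 1 to 5. The 7 PS19 animals at 9 months had a lowest, median and highest value of 227, 274 and 467 normalized reads for L1_Mus4, against 185, 215 and 368 in the 6 controls. L1_Mus4 was at -3.01 in PS19 and -3.42 in control. For both subfamilies the ages did not overlap. After scaling within repeats Lx3B, Lx3_Mus and L1_Mus4 remained lower and passed, with log2 fold changes of -1.30, -1.15 and -1.28 in PS19 and -1.26, -1.29 and -1.43 in control (limma).

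The remaining subfamilies with the most reads lay between these. Lx9 had 11927, 12686, 14798, 5249.8 and 2466 normalized reads in PS19 replicates 1 to 5 at 4 months, against 12768, 21891, 13817, 2058 and 3457 in control replicates 1 to 5. Lx9 at 9 months had a lowest, median and highest value of 1269.8, 1541 and 2121 normalized reads in PS19, against 1169.7, 1273 and 1679.7 in control. Lx9 was at -2.31 in PS19 and -2.56 in control (log2 fold change of 9 over 4 months). Lx had 7904, 8627, 9398, 4151 and 2283 normalized reads in PS19 replicates 1 to 5 at 4 months, against 8637, 14264, 9227, 2044 and 3212 in control replicates 1 to 5. In the 9-month samples the lowest, median and highest of Lx were 1082, 1359 and 2074 normalized reads in PS19 and 1097, 1229 and 1479 in control. The name Lx without a number stood at -1.99 in PS19 and -2.27 in control. L1_Mus3 had 12329, 12932, 16020.3, 6179 and 2889 normalized reads in PS19 replicates 1 to 5 at 4 months, against 13319.8, 22889, 14875, 2685 and 4509 in control replicates 1 to 5. At 9 months its lowest, median and highest values were 997, 1321 and 2155 normalized reads in the 7 PS19 animals and 899, 1050.1 and 1532 in the 6 controls. L1_Mus3 was at -2.65 in PS19 and -3.03 in control. For L1_Mus1 the lowest, median and highest values at 9 months were 1242, 1636 and 2237 normalized reads in PS19 and 1059, 1377 and 1781 in control. L1_Mus1 was at -2.12 in PS19 and -2.53 in control, and like Lx, Lx9 and L1_Mus3 it passed as lower in both genotypes on either scale. Over the whole order, the log2 fold change in PS19 was -2.40 for Lx10, -1.75 to -2.17 for the 2 Lx8 names, -2.39 for Lx6, -1.77 to -2.45 for Lx5 names, -2.27 to -2.63 for Lx4, -2.10 to -3.02 for Lx3 and -2.31 to -3.11 for Lx2. The 9 L1_ names ranged from -2.12 to -3.01 and the 3 L1VL names from -2.56 to -2.72. In control the same groups ran from -1.96 (Lx7) to -3.73 (Lx2A).

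**Figure D4:**
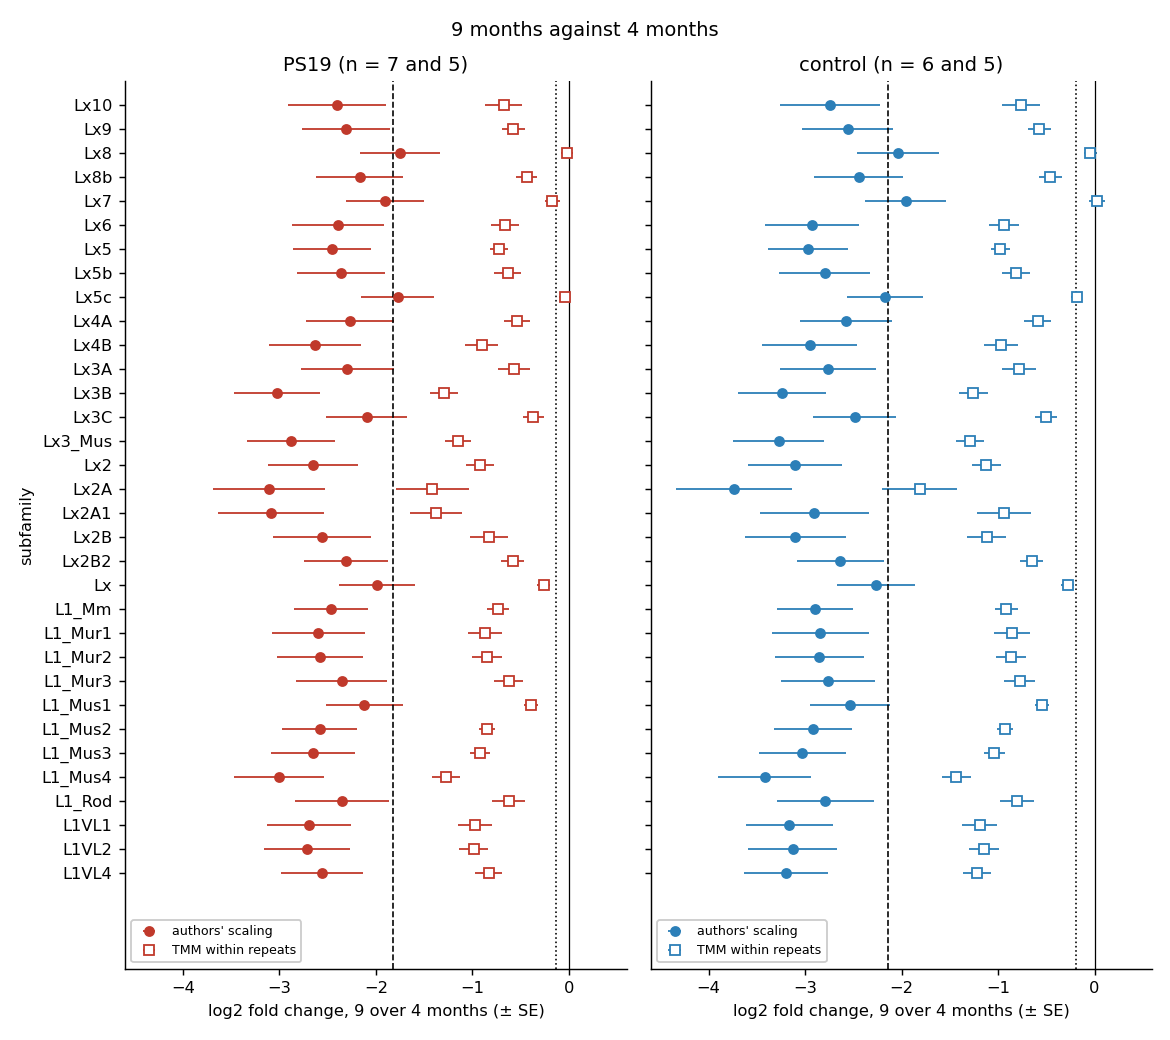
Log2 fold change of 9 over 4 months for each of the 33 subfamilies, in PS19 on the left (n = 7 and 5) and control on the right (n = 6 and 5). Filled circles use the authors' scaling and open squares TMM scaling within the repeat table, with SE bars, and the dashed and dotted lines are the medians over all 920 rows tested on these scales. Lx8, Lx7 and Lx5c lie nearest 0 and Lx2A farthest in both panels.

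The make-up of the group also differed between ages, measured as the percent of the summed signal of the 33 that each subfamily took in a sample. This measure does not depend on size factors, and it is given as a description. All 9-month shares exceeded all 4-month shares for 2 subfamilies and lay under them for 5, and the other 26 overlapped. With the signal of each of the 920 rows taken relative to the same sum, 27.7% were higher without overlap at 9 months and 1.3% lower. The shares of the 33 add up to the whole in each sample, so a rise in some goes with a fall in others. The sum itself took less of the repeat signal at 9 months, so rows outside the 33 tend to stand higher relative to it. The percentages over all rows are therefore no like background for the counts among the 33. Lx8 took 16.0% ± 1.14 of the summed signal in 9-month samples (SD, n = 13), against 11.2% ± 0.81 in 4-month samples (SD, n = 10). Lx7 took 10.4% ± 0.75 at 9 months and 7.50% ± 0.80 at 4 months. These are the pair with higher shares at 9 months. L1_Mus3 took 6.36% ± 0.47 at 9 months and 8.52% ± 0.21 at 4 months. L1_Mus2 took 3.73% ± 0.22 at 9 months and 4.74% ± 0.51 at 4 months. Its 4-month share ranged from 4.29% to 5.53% and was higher in replicates 4 and 5 than in replicates 1 to 3. L1_Mus4, Lx3_Mus and Lx3B were the other 3 with lower shares at 9 months, at 1.39%, 1.29% and 0.76% of the summed signal, against 2.42%, 2.06% and 1.24% at 4 months. The 4-month share of Lx3_Mus was lower in replicates 4 and 5 than in replicates 1 to 3.

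Between genotypes at 9 months, Lx6 was the 1 subfamily of the 33 whose share of the summed signal did not overlap, higher in PS19, and 0 were lower without overlap. Of all 920 rows relative to the same sum, 0.543% were higher and 0.326% lower without overlap. Lx6 took 2.53% ± 0.21 in PS19 (SD, n = 7), between 2.27% and 2.90%, against 2.07% ± 0.20 in control (SD, n = 6), between 1.70% and 2.24%. These shares come from the same samples as the fold change of Lx6 and are a description. Lx7 took 9.87% ± 0.34 of the summed signal in PS19 animals (SD, n = 7), against 11.00% ± 0.62 in controls (SD, n = 6), and Lx8 took 15.37% ± 1.10 in PS19 and 16.76% ± 0.66 in control. For Lx7 and Lx8 the PS19 and control ranges overlapped. L1VL4 took 1.29% ± 0.16 in PS19 and 1.02% ± 0.14 in control. The L1VL4 ranges overlapped. In the 4-month samples Lx6 took 2.80% ± 0.23 in PS19 animals, against 2.67% ± 0.39 in controls (SD, n = 5 each), and 0 of the 33 shares were without overlap between genotypes at that age, beside 0.326% of all rows as higher and 0.109% as lower.

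**Figure D5:**
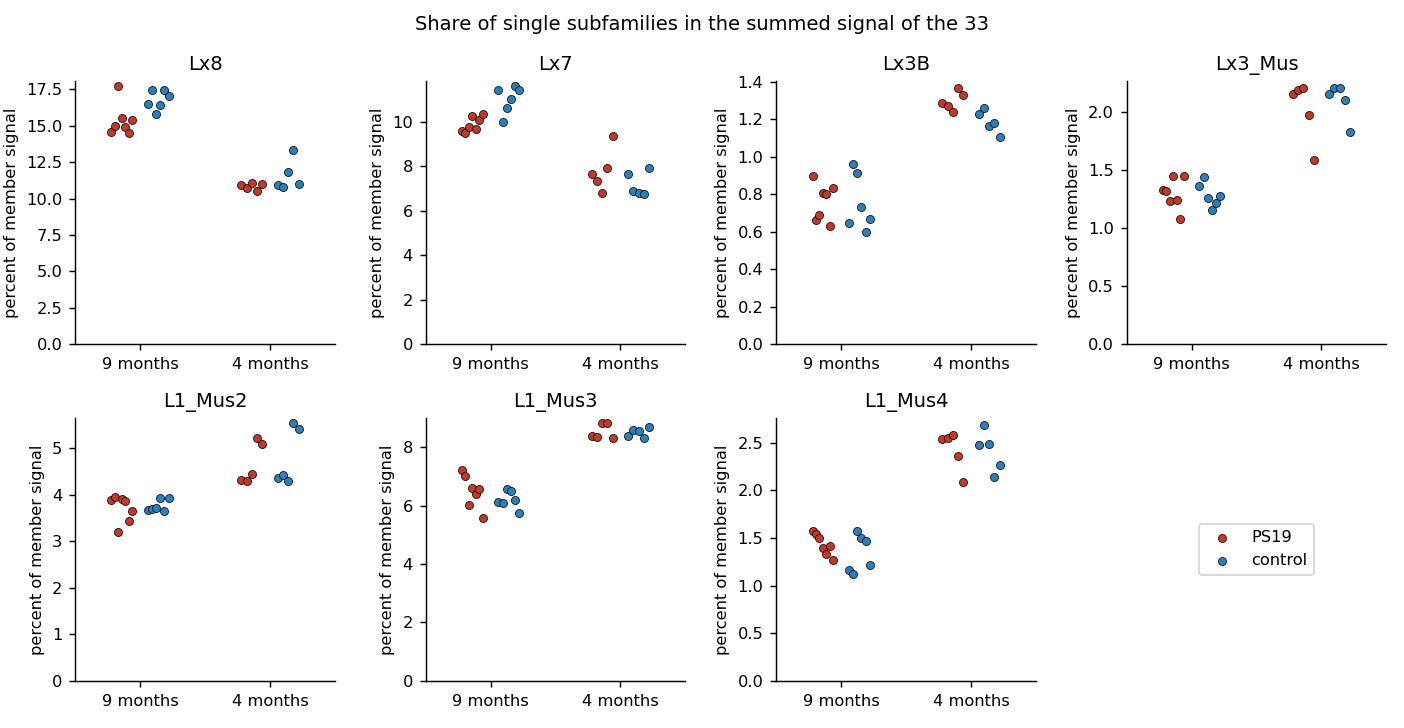
Percent of the summed signal of the 33 subfamilies taken by each of the 7 subfamilies whose ages do not overlap, in each sample at 9 and 4 months. Points are samples, red for PS19 and blue for control. Lx8 and Lx7 are higher at 9 months, and Lx3B, Lx3_Mus, L1_Mus2, L1_Mus3 and L1_Mus4 are lower.

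The 33 subfamilies varied together from animal to animal. Over the 13 samples at 9 months, the Pearson correlation of log2 values between pairs of the 33 had a median of 0.85 over 528 pairs, with a lowest value of 0.16. The median was 0.40 between the 92 other tested L1 subfamilies and 0.27 between all 920 rows. The lists were not matched for reads: the lowest mean among the 33 was 108 normalized reads (Lx2A), and the limit for all rows was 10. Over the 10 samples at 4 months these medians were 0.99 for the 33, 0.97 for the other L1 subfamilies and 0.94 for all rows, with replicates 1 to 3 above replicates 4 and 5 for each of the 33. PS19 and control samples of an age were pooled without removing group means, so a difference between genotypes can add to these correlations. The values of a pair share a library, its depth and its size factor, and related subfamilies share sequence, so these correlations are a description. Lx2A1 (0.55), Lx2A (0.56) and L1_Mm (0.69) had the lowest median correlation with the rest at 9 months, and L1_Rod (0.92) the highest. The CV of a subfamily over animals had a median of 25.8% in PS19 and 22.8% in control at 9 months, and of 55.9% in PS19 and 73.4% in control at 4 months. At 9 months PS19 replicate 1 was the highest of all 13 samples for 30 of the 33 subfamilies, and control replicate 5 the lowest for 21. At 4 months control replicate 2 was the highest of all 10 samples for 33 of 33, and the lowest was control replicate 4 for 19 and PS19 replicate 5 for 14.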

How the data were processed

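Spinal cord RNA of 23 mice was poly(A)-selected and sequenced as stranded paired reads, per the labels. The deposited values are a signal per repeat subfamily, for which the authors scaled the reads of each sample by its size factor, and 0 columns went unused. Trimmomatic, STAR, DESeq2 and the build mm10 are named in the submitters' processing notes. The sources used here do not give the counting program, the repeat annotation, how multi-mapping reads were counted, or whether both ages were scaled together. Related subfamilies have similar sequences, and a read may have been assigned to any of them.

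In the 23 columns, 100% of values lay within 0.1 percent of a read of a whole multiple of the value of 1 read, which gave the reads used as an alternative with edgeR 4.0.16 and DESeq2 1.42.0. Rows whose mean over the 23 samples reached 10 were tested with limma 3.58.1 in R 4.3.3 on log2(value + 1), which understates changes of low rows, with a mean-variance trend, Benjamini-Hochberg adjustment over 920 rows and a threshold of 0.05. Genotypes were compared within the samples of an age, and ages and the interaction over all samples. The limma fit was tested on simulated reads for the comparisons other than the interaction. How many of the simulated differences it recovered is not given here. In these, rows were drawn independently and without the 4-month sets. The other tools, the TMM scaling and the shares were not tested in this way. Within groups, every pair of samples differed beyond the noise of sampling (lowest chi-square per degree of freedom 3.73).

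The labels give no replicate number, batch or sex. The subfamilies, lists, sample sets and tests were chosen with earlier results of these data known. Values are given for the 6 subfamilies with the highest mean, the 3 with the smallest p between genotypes at each age, the 2 with the smallest p in the interaction, the 3 highest and 3 lowest fold changes between ages in each genotype, and any past the threshold between genotypes. Alternatives were 2 other pseudocounts, no filter and a filter at 50, TMM scaling, edgeR, DESeq2, leaving out each animal, other sample sets and a term for the sample sets at 4 months.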

Additional observations from a re-analysis of the deposited data

Results flagged for a closer look

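Over the values of the 33 subfamilies and their summed signal and share, 140 groups of values were examined for a single sample far from the others by Dixon's test, and 9 held one. Chance gives about 1 in 20 groups, and the 33 subfamilies vary together, so these are not independent. All 9 were at 9 months, 2 in PS19 and 7 in control.

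In PS19 replicate 1, Lx3B stood at 268 normalized reads, against 126 to 165 in the other PS19 animals, and L1_Mm at 259.7, against 173 to 190.2. The other 7 were in control replicate 3. There Lx9 stood at 1679.7, with 1169.7 to 1303 in the other controls. Lx8b was at 1038, with 636 to 787 in the others, and Lx2A at 35.7, with 6.02 to 15.2. L1_Mur3 was at 845, with 441 to 573, and L1_Mus3 at 1532, with 899 to 1093. L1_Mus4 was at 368, with 185 to 252, and the summed signal of the 33 was 23383, with 14519.6 to 17811 in the other controls. The effect of leaving out either animal on the 9-month comparison is given with that comparison.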

How the results depend on the processing

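No paired analysis was made because the labels give no pairing of animals. In PS19 against control at 9 months, all rows passing as higher (28 as reported) numbered 8 with no filter, 8 with TMM scaling, 1 with all 23 samples in the fit and 6 with PS19 replicates 6 and 7 only. Those passing as lower (3 as reported) numbered 0, 7, 0 and 0 in the same order. Of the 33 subfamilies, 1 passed as reported, 2 in DESeq2 (Lx6 and L1VL4), and 0 in edgeR and in those 4 settings, with an adjusted p for Lx6 of 0.0216 in DESeq2, 0.0559 in edgeR and 0.172 with no filter. Leaving out 1 animal gave 7 to 72 higher, 0 to 6 lower and 0 to 9 of the 33 higher. Between ages in PS19 (56 higher and 708 lower as reported), TMM scaling gave 285 and 285, and replicates 4 and 5 alone 129 and 462, with medians of the 33 at -0.72 and -1.27. In control (56 and 730), these gave 287 and 311, and 150 and 462, with medians at -0.87 and -1.35, and Lx7 turned to 0.030 (log2 fold change) with TMM scaling. Leaving out 1 animal kept 33 of 33 lower in both genotypes. At 4 months, leaving out 1 animal moved the log2 fold change between -0.52 and 0.22 for L1_Mus1, -0.50 and 0.20 for Lx5, and -0.52 and 0.23 for Lx8, and the median of the 33 between -0.49 and 0.36. In the interaction, DESeq2 called 1 row and the term for the sample sets 2, none of them among the 33. The causes were not tested. Depth limits Lx2A and Lx2A1 most, which have the fewest reads.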
